A study of Homo sapiens with 20 samples.

Results

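The apolipoprotein L family of humans has 6 genes, APOL1 to APOL6, and all 6 were found by symbol among the 43366 genes of the deposited count table. Their mRNA was measured by RNA-seq in U2OS, a cell line from a human osteosarcoma. The 5 WT clones and the 5 clones labelled ZBTB48 KO each gave 1 untreated library and 1 library from cells kept for 24 h with 250 U/ml of the cytokine interferon gamma (IFNγ), which makes 20 libraries in 4 groups of 5. ZBTB48 is a zinc finger protein of telomeres and promoters, and the study asked whether IFNγ-induced expression of CIITA, the regulator of MHC class II genes, depends on it. Each clone is a separate replicate, so all p-values measure the spread between clones of this single line.

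Apolipoprotein L proteins share an amphipathic domain that can insert into membranes. APOL1 carries a secretion signal, circulates on high density lipoprotein and kills African trypanosomes, whereas the other members stay inside the cell. APOL3 disrupts the membranes of bacteria in the cytosol of IFNγ-treated cells, together with the guanylate-binding protein GBP1. APOL6 has been described as a mediator of cell death, and less is known of APOL2, APOL4 and APOL5. IFNγ acts through its receptor and the kinases JAK1 and JAK2, and induces the transcription factor IRF1.

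All 6 genes lie on chromosome 22 (coordinates of GRCh38, as listed in the deposited table). APOL6 (chr22:35648446-35668404, plus strand) and APOL5 (chr22:35708424-35729483, plus strand) are 40.0 kb apart. A gap of 411 kb separates them from APOL3 (chr22:36140323-36166177, minus strand), APOL4 (chr22:36189128-36204833, minus strand), APOL2 (chr22:36226209-36239954, minus strand) and APOL1 (chr22:36253133-36267525, plus strand), which together span 127 kb. No exon of the 6 genes overlapped an exon of another listed gene. Only reads that mapped to a single place were counted, so any read that fits several of these related genes equally well is missing from the values.

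The libraries held 46652288 to 72952859 counts, and 3 counts, taken as the floor, were worth 0.0404 to 0.0609 CPM (counts per 1000000 counts of the library, TMM-scaled). Without IFNγ, the mean level of ZBTB48 mRNA was 8.88 ± 0.54 CPM in WT and 4.34 ± 4.03 CPM in clones labelled KO (both SD, n = 5). KO replicate 3 had 11.3 CPM untreated and 15.8 CPM treated, above every WT library of the same treatment. An mRNA level alone cannot show whether its KO label is wrong, and ZBTB48 protein was not examined here. The treated libraries labelled KO replicates 4 and 5 resembled the untreated library of the other label more than that of their own, so values per clone are also given with these labels exchanged. Of genes that mark mesenchymal and bone-forming cells, VIM stood at 1241 to 1810 CPM, while COL1A2 was at 0 in 4 libraries and reached no more than 0.944 CPM. Of the markers of other cells, the summed level of 5 blood cell genes stayed at or under 1.09 CPM, that of 4 endothelial genes at or under 4.95 CPM and that of 4 epithelial genes at or under 50.2 CPM.

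To see how the family responded to IFNγ, treated and untreated libraries were compared within each genotype. APOL1, APOL2, APOL3, APOL4 and APOL6 rose in WT clones and in clones labelled KO, by between 6.18-fold (APOL2) and 149-fold (APOL3) in WT. APOL5 stayed near the floor in all 20 libraries and was not tested. A gene was called when edgeR's adjusted p was under 0.01 and the change over 2-fold: 5 of the 5 tested members were called higher in WT, where 2.48% of 19522 genes were, and 5 of 5 in the clones labelled KO, where 1.70% of 19385 genes were. The median log2 fold change of the tested members was 5.45 in WT and 5.19 in KO, beside −0.03 over all genes tested in either comparison. For each of these members every treated library lay above every untreated one, as it did for 6.68% of all tested genes in WT and 6.07% in KO. In such bulk samples a larger share of responding cells and more RNA per cell cannot be told apart.

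**Figure D1:**
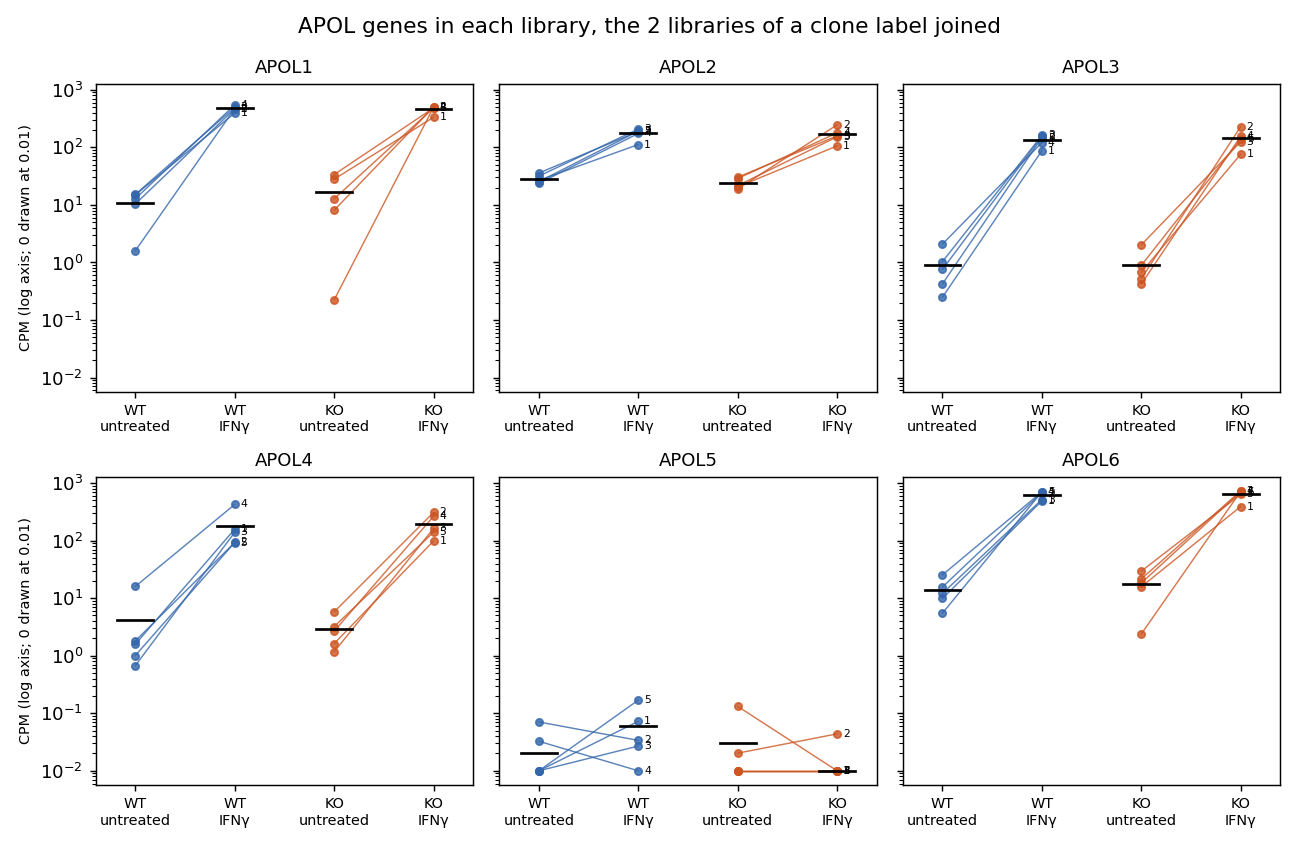
CPM (log axis, values of 0 drawn at 0.01) of each APOL gene in the 20 libraries, with lines joining the untreated and the IFNγ-treated library of a clone label, replicate numbers beside the treated points and black bars for the group means. APOL1, APOL2, APOL3, APOL4 and APOL6 rise along every line, and for APOL1 and APOL6 the widely spread untreated points meet at nearly one level after IFNγ.

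APOL1, the secreted member, was measured at 14.95, 10.4, 15.2, 12.8 and 1.59 CPM in untreated WT replicates 1 to 5, and at 395, 468, 496, 547 and 472 CPM after IFNγ. In the clones labelled KO the untreated values were 28.0, 0.223, 33.7, 8.08 and 12.7 CPM and the treated ones 334, 498, 485, 502 and 486 CPM. The untreated WT replicate 5 and KO replicate 2 were far below the rest, whereas the treated libraries lay close together. The log2 fold change was 5.45 (SE 0.51, edgeR adjusted p = 5.91e-05) in WT, which is 43.7-fold (95% interval 20.2 to 94.7). In KO it was 4.80 (SE 0.86, edgeR adjusted p = 0.00733), or 27.8-fold (95% interval 7.47 to 104). With the clone as a block the KO value was 5.36 with an edgeR adjusted p of 0.01005, just over the threshold, and with replicates 4 and 5 exchanged 5.31 with 0.0262. The call was also lost without KO replicate 1, 3, 4 or 5, where the fold change ranged from 4.59 to 5.22 and the edgeR adjusted p reached 0.0538. Without KO replicate 2, the lowest untreated library, it was 4.45 with an edgeR adjusted p of 3.86e-04.

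APOL2 had the smallest response of the 5 and, per kb of exon, the highest mean level before treatment. It stood at 26.8, 35.8, 31.7, 23.7 and 25.4 CPM in untreated WT clones and at 112, 189, 208, 175 and 192 CPM in treated ones. In the clones labelled KO it went from 20.6, 19.0, 30.3, 28.8 and 21.7 CPM to 106, 247, 159, 179 and 153 CPM. Replicate 1 was the lowest treated library of both genotypes, yet it was still above every untreated one. APOL2 rose by 2.63 (SE 0.18, edgeR adjusted p = 5.67e-06) on the log2 scale in WT and by 2.81 (SE 0.23, edgeR adjusted p = 3.87e-05) in KO, and the 95% intervals of the folds were 4.70 to 8.13 and 4.93 to 9.94.

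APOL3, which acts against bacteria in the cytosol, had the lowest mean level of the 5 per kb of exon before treatment and rose most. Untreated WT clones had 0.2495, 0.758, 1.04, 2.09 and 0.425 CPM, or 15 to 128 counts, and treated ones had 87.8, 156, 162, 121 and 148 CPM. The clones labelled KO had 0.676, 0.526, 2.02, 0.422 and 0.890 CPM untreated and 76.2, 229, 125, 157 and 139 CPM treated. All untreated libraries were thus above the floor of 3 counts, and the lowest treated library was far above the highest untreated one. The log2 fold change was 7.22 (SE 0.53, edgeR adjusted p = 8.32e-06) in WT and 7.31 (SE 0.51, edgeR adjusted p = 1.14e-05) in KO. By size, APOL3 was number 26 of the 485 genes called higher in WT and number 25 of the 329 in KO, while APOL2 was number 192 and number 132.

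APOL4 differed most between the treated clones. It measured 1.58, 1.01, 0.670, 16.0 and 1.81 CPM in untreated WT clones and 158, 92.9, 139, 425 and 92.8 CPM in treated ones. The clones labelled KO held 1.62, 5.77, 1.17, 2.66 and 3.21 CPM untreated and 98.5, 309, 163, 265 and 140 CPM treated. WT replicate 4 was the highest library both before and after IFNγ, and among the clones labelled KO replicate 2 was. The log2 fold change was 5.44 (SE 0.97, edgeR adjusted p = 0.00427) in WT and 6.08 (SE 0.52, edgeR adjusted p = 4.97e-05) in KO. Without WT replicate 4 the WT value was 6.59 with an edgeR adjusted p of 2.33e-05, whereas leaving out WT replicate 1, 2, 3 or 5 gave 5.26 to 5.42 and edgeR adjusted p-values up to 0.0312, over the threshold.

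APOL6, the member linked to cell death, was measured at 491, 684, 518, 705 and 709 CPM in treated WT clones against 9.91, 15.6, 12.1, 25.4 and 5.49 CPM in untreated ones. In the clones labelled KO it went from 15.8, 2.39, 29.5, 21.6 and 18.3 CPM to 392, 721, 639, 733 and 710.1 CPM. As for APOL1, the untreated KO replicate 2 was the lowest library, and the treated KO replicate 1 was the lowest of its group. The log2 fold change was 5.52 (SE 0.39, edgeR adjusted p = 6.47e-06) in WT and 5.19 (SE 0.55, edgeR adjusted p = 2.78e-04) in KO.

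APOL5 had no count in 11 of 20 libraries and at most 9 counts in any. It passed 3 counts in 4 libraries, 1 of untreated WT, 1 of untreated KO and 2 of treated WT. A response of APOL5 was therefore not detectable at this depth. The single-gene comparison of the other 5 members on log2(CPM + 0.1), by a two-sided exact permutation test, gave p = 0.00794 for each member in each genotype, the smallest value that 5 against 5 libraries allow. Libraries were permuted without regard to clone, so the pairing of treated with untreated libraries was ignored and this p is not that of a paired test.

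To ask whether the level of the family depends on the ZBTB48 label, WT and KO libraries were compared within each treatment. None of the 5 tested members was called by edgeR in treated or in untreated libraries, and none had an unadjusted p under 0.05. Among all genes 0.0155% of 19383 were called in treated libraries and 4.35% had an unadjusted p under 0.05, and in untreated libraries the shares were 0.0154% of 19505 and 4.79%. DESeq2 called no member either. A p that misses the threshold does not show equal levels, so the intervals are given.

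After IFNγ the WT over KO ratio was bounded most closely for APOL1, at 1.03 (95% interval 0.830 to 1.28). It was 0.970 (95% interval 0.729 to 1.29) for APOL6 and 1.04 (95% interval 0.743 to 1.45) for APOL2. For APOL3 it was 0.927 (95% interval 0.625 to 1.37), and for APOL4 0.927 (95% interval 0.472 to 1.82). The interval of APOL4 thus held a level 2-fold lower in WT than in KO, but not one 2-fold higher. Before IFNγ the intervals were wide for the members whose untreated libraries were scattered. The ratio was 0.661 (95% interval 0.179 to 2.44) for APOL1, 0.775 (95% interval 0.341 to 1.76) for APOL6, 0.997 (95% interval 0.411 to 2.42) for APOL3 and 1.46 (95% interval 0.414 to 5.12) for APOL4. Untreated APOL2 was the exception, at 1.18 (95% interval 0.916 to 1.53).

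The clone labelled KO replicate 3, whose ZBTB48 mRNA was above that of every WT library of the same treatment, was then left out. The log2 differences of the 5 members, WT minus KO, ran from −0.16 to 0.06 in treated libraries without it, beside −0.11 to 0.05 with it. In untreated libraries they ran from −0.17 to 0.52, beside −0.60 to 0.54. Without that clone the untreated difference of APOL1 went from −0.60 to −0.17, that of APOL6 from −0.37 to −0.10, and that of APOL3 from −0.0047 to 0.52, a turn of direction. No member was called with or without it.

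The difference between the IFNγ responses of the genotypes was tested as an interaction over all 20 libraries. This fit used group means and did not pair the 2 libraries of a clone, so differences between clones are part of its error. No member was called, as none of 21052 genes was (0%) by edgeR or by DESeq2. No member was among the 86 genes (0.409%) with an unadjusted p under 0.05. That share is far under what chance gives at 0.05, so a member's absence from the 86 says little. With the clone as a block no member was called either. On the log2 scale, WT response minus KO response was 0.64 (95% interval −1.28 to 2.55) for APOL1 and 0.31 (95% interval −0.96 to 1.58) for APOL6. With 1 clone left out at a time it ran from 0.22 to 0.98 for APOL1, lowest without KO replicate 3 and highest without KO replicate 2, and from 0.043 to 0.64 for APOL6, at its lowest and highest without the same respective clones. WT response minus KO response was −0.20 (95% interval −0.80 to 0.40) for APOL2, −0.10 (95% interval −1.44 to 1.23) for APOL3 and −0.66 (95% interval −2.74 to 1.43) for APOL4. Differences of 2-fold in the response lie within the intervals of APOL1, APOL3, APOL4 and APOL6, and outside that of APOL2.

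**Figure D2:**
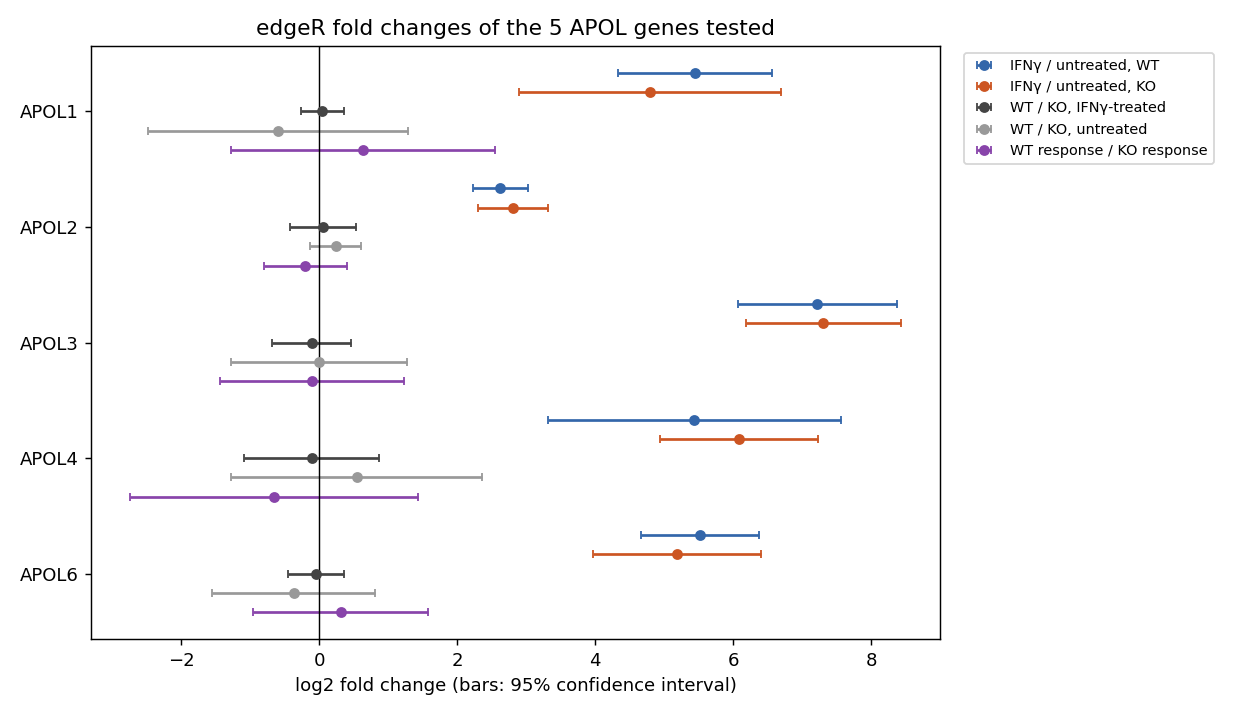
Log2 fold changes of the 5 tested APOL genes in the 5 edgeR comparisons, with bars for the 95% confidence interval. The responses to IFNγ (blue and orange) lie to the right of 0 for every gene, from 2.63 to 7.31, and the intervals of all comparisons between WT and KO labels include 0.

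Clones were then followed one by one, as the log2(CPM + 0.1) of the treated minus that of the untreated library with the same label. All 5 members rose in 10 of 10 clones. The folds ran from 11.9 to 1545 for APOL1, from 4.18 to 13.0 for APOL2, from 55.4 to 366 for APOL3, from 26.5 to 181 for APOL4 and from 21.6 to 290 for APOL6. The 1545-fold value of APOL1 belonged to KO replicate 2 and rests on 11 counts in its untreated library (0.223 CPM, exact Poisson 95% interval 0.111 to 0.398, counting error only). Mean responses of WT and KO clones differed by −0.18 (APOL2) to 0.13 (APOL6), WT minus KO, with two-sided exact permutation p-values of 0.603 to 0.976, and of 0.627 to 0.968 once the treated libraries labelled KO 4 and KO 5 were exchanged. For APOL1, APOL3 and APOL4 these differences were −0.09, 0.04 and 0.05. The interaction fit gave them the opposite sign, at 0.64, −0.10 and −0.66, while APOL2 and APOL6 kept theirs.

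Fold changes of APOL1 and APOL6 varied between clones mainly through the untreated level. Over 10 untreated clones the highest APOL1 value was 151 times the lowest, and over 10 treated clones 1.64 times. The SD of log2 values fell from 2.02 to 0.21. APOL6 narrowed from 12.4 times to 1.87 times, APOL4 from 23.8 times to 4.58 times and APOL3 from 8.36 times to 3.01 times, whereas APOL2 went from 1.89 times to 2.32 times. Among 15118 genes of at least 1 CPM on average, the SD of APOL1 between clones was at percentile 99.3 untreated and at percentile 16.5 treated. The SD was smaller after IFNγ for 36.1% of these genes, and for 60.2% of the 256 of them that were called higher in both genotypes. These shares are a description, with no test.

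The spread of untreated APOL1 and APOL6 came largely from 2 clones. Without WT replicate 5 and KO replicate 2, a choice made after seeing the data, the highest of the 8 remaining untreated clones was 4.17 times the lowest for APOL1 and 2.98 times for APOL6. The SD of log2 APOL1 was then 0.69 untreated and 0.23 treated, so it still fell. The same clones were low in other interferon-stimulated genes. PSMB9, a subunit of the immunoproteasome, stood at 2.62 CPM in WT replicate 5 and at 0.627 CPM in KO replicate 2, against 11.1 to 25.6 and 11.4 to 22.2 CPM in the other untreated clones of each label. IFIT2, an antiviral protein, stood at 0.443 and 0.101 CPM, against 2.50 to 6.01 and 1.72 to 8.96 CPM.

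In treated libraries KO replicate 1 was the lowest of its group for 5 of 5 members and WT replicate 1 for 4 of 5. IRF1 was the middle value of its group in both. IFIT2 was the lowest in both, at 10.2 CPM against 16.6 to 36.0 in KO and at 16.9 CPM against 21.7 to 26.8 in WT. Without both clones the 8 remaining treated clones differed by 1.17 times for APOL1 and by 1.42 times for APOL6.

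Members were next compared by how they varied together within groups, as Pearson's r of the deviations of log2(CPM + 0.1) from the mean of each library's own group. In the 10 treated libraries APOL2 and APOL3, which lie on the same strand with APOL4 between them, moved together, with r = 0.975 (permutation p = 0.000460, adjusted 0.00920 over 20 relations) and a Spearman rank correlation of 0.927 (permutation p = 0.000770, adjusted 0.0154). The r was 0.946 without the 2 libraries whose APOL2 deviations were farthest from the median. In the 10 untreated libraries the same pair had r = 0.176 and a rank correlation of 0.067 (permutation p = 0.629 and 0.863, adjusted 0.663 and 0.909). In treated libraries APOL4, which lies between them, had r = 0.343 with APOL2 and 0.289 with APOL3 (permutation p = 0.330 and 0.410, adjusted 0.413 and 0.482). Treated APOL1 and APOL6 had r of 0.712 to 0.791 with APOL2 and APOL3 (permutation p = 0.0249 to 0.0501, adjusted 0.109 to 0.125). Without the 2 libraries farthest in the lower-numbered gene of each pair, those r ran from −0.151 to 0.0099. Permutations were drawn within groups, and libraries of a clone are not independent between treatments.

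APOL1 and APOL6, which stand at opposite ends of the cluster, had r = 0.890 in untreated libraries (permutation p = 0.0202, adjusted 0.109) and r = 0.865 in treated ones (permutation p = 0.0372, adjusted 0.109). These relations rest on the libraries that stood apart, since r fell to 0.154 and 0.180 without the 2 farthest in APOL1. Spearman's rank correlation was 0.430 untreated and 0.758 treated (permutation p = 0.264 and 0.0118, adjusted 0.440 and 0.107). APOL4 had no relation that passed 0.05 after adjustment. Its r with APOL1 was −0.350 untreated and 0.600 treated (permutation p = 0.216 and 0.0781, adjusted 0.344 and 0.173), and −0.314 and 0.943 without the 2 libraries farthest in APOL1. This pair was not examined without the libraries farthest in APOL4. The rank correlations of APOL4 with APOL1 were −0.624 and 0.745 (permutation p = 0.0628 and 0.0160, adjusted 0.251 and 0.107).

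**Figure D3:**
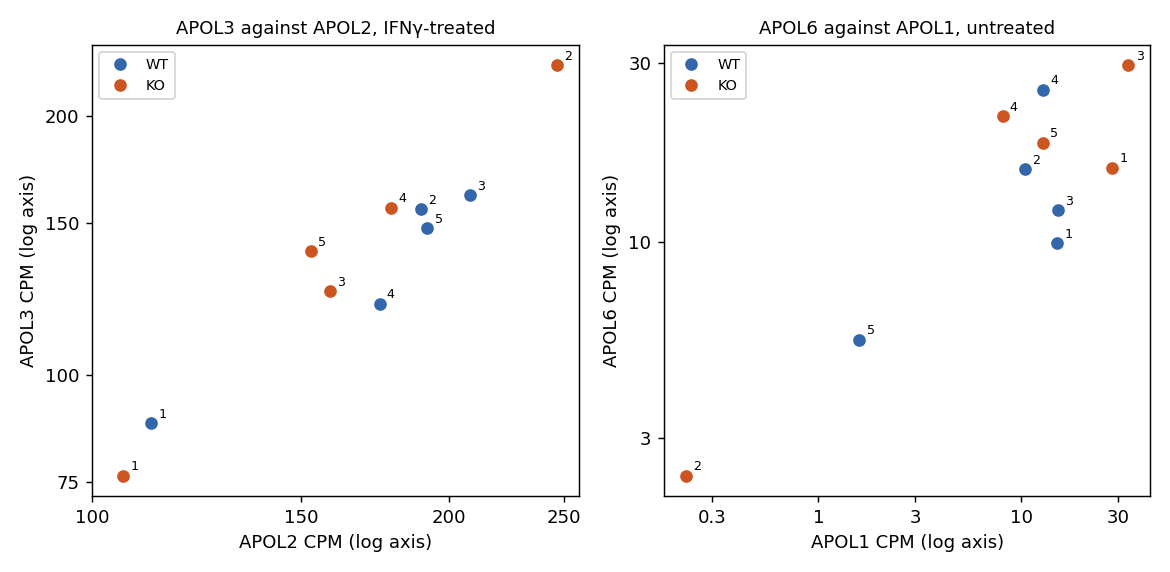
CPM (log axes) of APOL3 against APOL2 in the 10 treated libraries and of APOL6 against APOL1 in the 10 untreated libraries, with replicate numbers beside the points. APOL2 and APOL3 rise together over the whole range, while the relation of APOL1 and APOL6 rests on KO replicate 2 and WT replicate 5 at the lower left.

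Over all 20 libraries and 15117 genes of at least 1 CPM on average, the genes whose within-group deviations were most like those of APOL1 were PSMB9 (r = 0.960), the RNA sensor IFIH1 (r = 0.929) and TRANK1 (r = 0.924). For APOL6 they were UBE2L6, an enzyme of ISG15 conjugation (r = 0.896), IFIT2 (r = 0.883) and APOL1 itself (r = 0.875). APOL4 was most like SELENOP (r = 0.884), a secreted selenium carrier, then LINC02700 (r = 0.875) and GLG1 (r = 0.875). These r rested largely on the clones labelled WT replicate 4 and KO replicate 2: in the other 16 libraries they were 0.647, 0.538 and 0.422, an alternative chosen after seeing the data. LINC02700 had 0 counts in 9 of the 20 libraries. APOL2 was most like SPATA24 (r = 0.746), UNC5A (r = 0.731) and ZBED8 (r = 0.726), and APOL3 most like TMED9 (r = 0.724), GUCY1B1 (r = 0.722) and SLCO4C1 (r = 0.715). None of these 6, nor SELENOP or GLG1, rose with IFNγ by over 0.24 on the log2 scale in either genotype. These r describe 20 libraries from 10 clones, and the best of 15117 genes is high in part because it was picked.

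Levels of different members were compared as CPM per kb of exonic length. In untreated WT clones APOL2 led with 8.57 ± 1.49 CPM per kb (SD, n = 5), above APOL1 at 3.67 ± 1.87 in 5 of 5 libraries, with no overlap of their ranges. APOL6 (1.35 ± 0.74), APOL4 (1.05 ± 1.65) and APOL3 (0.144 ± 0.114) followed, and the ranges of APOL1 and APOL6, of APOL6 and APOL4, and of APOL4 and APOL3 overlapped. In untreated clones labelled KO the order was the same, but APOL2 (7.19 ± 1.53) exceeded APOL1 (5.53 ± 4.66) in only 3 of 5 libraries.

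After IFNγ, APOL1 led the family. It reached 159 ± 18.5 CPM per kb in WT and 154 ± 23.9 in KO (SD, n = 5), above the next member, APOL6, in 5 of 5 libraries of each genotype and without overlap. APOL6 (61.0 ± 10.6 and 62.7 ± 14.02), APOL2 (52.4 ± 11.2 and 50.4 ± 15.3) and APOL4 (45.5 ± 34.9 and 48.9 ± 22.1) had overlapping ranges, and APOL3 came next (21.3 ± 4.84 and 23.0 ± 8.82), with a range that overlapped that of APOL4. The sum over the 6 genes went from 14.8 ± 3.42 to 339.6 ± 58.4 CPM per kb in WT and from 15.3 ± 6.01 to 339 ± 77.5 in KO.

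As a share of that sum, APOL2 fell from 60.5 ± 16.0% to 15.5 ± 2.93% in WT and from 51.4 ± 16.8% to 14.7 ± 1.51% in KO (two-sided exact permutation p = 0.00794 in both). APOL1 rose from 23.4 ± 11.3% to 47.2 ± 2.72% in WT (two-sided exact permutation p = 0.00794). In KO its share was 30.4 ± 21.2% untreated and 46.3 ± 4.76% treated (two-sided exact permutation p = 0.167). APOL6 went from 8.65 ± 3.13% to 18.1 ± 2.63% in WT and from 10.5 ± 4.70% to 18.5 ± 1.56% in KO, and APOL3 from 0.916 ± 0.568% to 6.35 ± 1.43% and from 0.914 ± 0.362% to 6.60 ± 1.16%. Both rose in share with a two-sided exact permutation p of 0.00794 in each genotype. The share of APOL4 did not pass the test, with 6.45 ± 8.80% and 12.8 ± 7.41% in WT (two-sided exact permutation p = 0.262) and 6.69 ± 7.26% and 13.9 ± 3.57% in KO (p = 0.0952). These tests of shares also ignored the pairing of treated with untreated libraries of a clone.

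**Figure D4:**
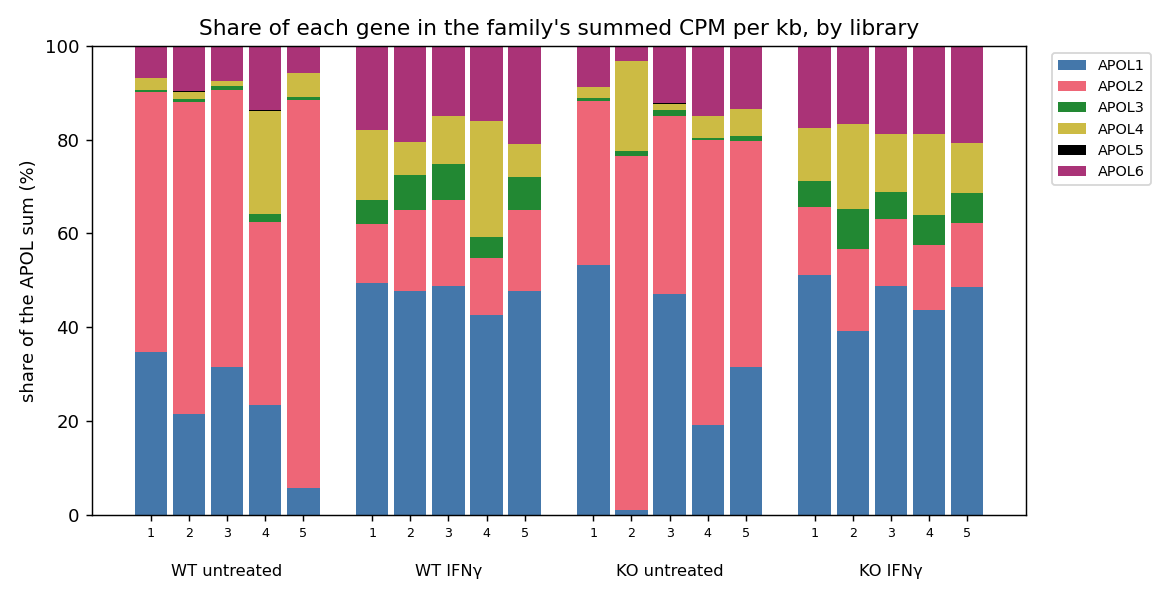
Share (%) of each APOL gene in the family's summed CPM per kb, with 1 bar per library and replicate numbers below. APOL2 holds the widest part of most untreated bars, 60.5% on average in WT, and APOL1 that of every treated bar, 47.2% on average in WT.

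The genes around the family did not share its response. Of 11 other genes within 200 kb of a member, 7 were expressed enough to be tested and 0 were called by edgeR in either genotype, with median log2 fold changes of −0.14 in WT and −0.24 in KO. MYH9, the heavy chain of non-muscle myosin, lies 13.8 kb from APOL1 and stood at 1420.4 CPM untreated and 1235 CPM treated. Its log2 fold change was −0.13 (SE 0.21, edgeR adjusted p = 0.771) in WT and −0.24 (SE 0.27, edgeR adjusted p = 0.641) in KO. RBFOX2, a splicing factor 9.25 kb from APOL5, lies between APOL5 and APOL3 and changed by −0.14 (SE 0.12, edgeR adjusted p = 0.510) and −0.13 (SE 0.18, edgeR adjusted p = 0.726). Next to APOL6, LOC284912 (10.5 kb away) averaged 0.0408 CPM untreated and 0.0498 CPM treated and was not tested. Beyond it, myoglobin (MB, 25.1 kb away) stood at 0.383 CPM untreated and 0.624 CPM treated, with 0.71 (SE 0.70, edgeR adjusted p = 0.596) and 0.70 (SE 0.74, edgeR adjusted p = 0.629). At an unadjusted p under 0.05 there were 0 of the 7 in WT and 1 in KO, and DESeq2 called 0. Within 500 kb there were 25 other genes, of which 15 were tested and 0 called by edgeR or DESeq2, with 2 in WT and 4 in KO at an unadjusted p under 0.05.

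**Figure D5:**
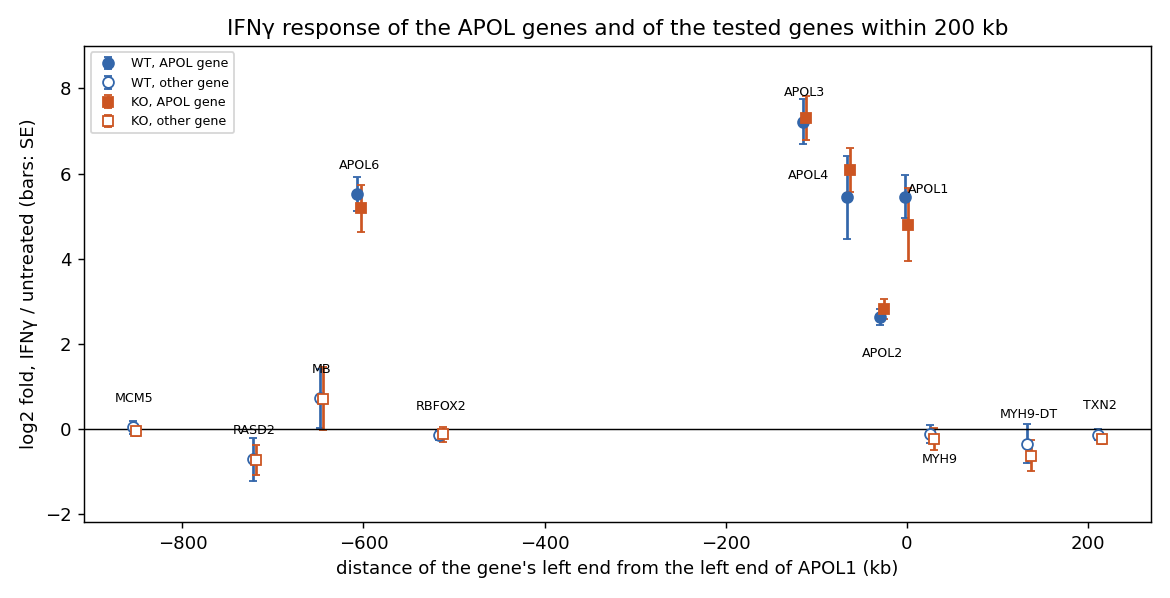
Log2 fold change after IFNγ (bars: SE) of the APOL genes (filled) and of the 7 tested genes within 200 kb (open), by the distance of each gene's left end from that of APOL1 in kb, for WT (circles) and KO (squares). The 5 tested APOL genes lie at 2.63 or higher, and the 7 other genes between −0.74 and 0.71.

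Of the pathway itself, 7 of 13 genes of IFNγ signalling were called higher by edgeR in both genotypes, and none lower. DESeq2 called the same 7 in WT and 8 in KO, where the added gene was SOCS3. The log2 fold change of SOCS3 was −0.97 (SE 0.32, edgeR adjusted p = 0.0744) in WT and −1.18 (SE 0.25, edgeR adjusted p = 0.0148) in KO. IRF1 rose by 4.96 (SE 0.13) in WT and by 4.72 (SE 0.33) in KO on the log2 scale. JAK2, the receptor's kinase, rose by 1.89 (SE 0.17) and 1.71 (SE 0.23), and SOCS1, an inhibitor of the pathway, by 2.20 (SE 0.31) and 2.10 (SE 0.26). None of the 13 was called between WT and KO labels or had an unadjusted p under 0.05 there, with a median log2 difference of 0.04 treated and 0.10 untreated.

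Of the guanylate-binding proteins, which include the antibacterial GBP1, 6 of 7 genes were tested and 6 were called higher in both genotypes. GBP1 went from a mean of 1.996 to 837 CPM in WT and from 0.918 to 870 CPM in KO, and GBP5 from 0.0667 to 805 CPM and from 0.0232 to 818 CPM. By contrast, 18 other apolipoproteins and relatives held 7 tested genes, and 0 were called in any of the 5 comparisons by edgeR or by DESeq2. At an unadjusted p under 0.05 there were 0 in the WT response, 1 in the KO response, 1 in each comparison of WT with KO and 0 in the interaction. APOE, the apolipoprotein of lipid transport, had log2 fold changes of −0.58 (SE 0.75) in WT and −0.81 (SE 0.38) in KO, and APOLD1, a relative known from endothelial cells, −0.24 (SE 0.31) and −0.45 (SE 0.42). Of 7 genes for proteins that bind APOL1 or APOL3, or are carried with them, 6 were tested and 0 called by edgeR or DESeq2, with 1 at an unadjusted p under 0.05 in the KO response and none in the other 4 comparisons.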

How the data were processed

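The authors aligned stranded mRNA reads of U2OS clones to GRCh38 with STAR 2.7.9a, kept unique mappers and counted them with featureCounts 2.4.0, and deposited raw counts per gene, with no normalization. The members and all gene lists used here were chosen with earlier results of these data known. Counts were analysed in R 4.3.3 with edgeR 4.0.16 (TMM, its filter on low counts, robust quasi-likelihood test, Benjamini-Hochberg adjustment over all tested genes), after a test on simulated counts. The study used DESeq2, which is here an alternative (version 1.42.0), as are other scalings, no filter, a clone block and leaving out each clone. CPM used TMM library sizes, and 0.1 CPM was added before logs. Intervals are at 95%. Named genes were ZBTB48, the members, genes of the lists, the nearest neighbours and the 3 genes most like each member. PSMB9 and IFIT2 in single libraries and the 2 clones left out together were chosen after seeing the values. The clone labels pair treated with untreated libraries: within-group deviations over 15118 genes correlated at r 0.790 to 0.892 in WT and at 0.698 to 0.847 in KO replicates 1 to 3, but at 0.000369 and 0.0691 in KO replicates 4 and 5, against 0.760 and 0.836 with their labels exchanged. Replicate numbers did not pair WT with KO. Depth was 46652288 to 72952859 counts per library. Promoter sequences of APOL1 to APOL6 were not used here.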

Additional observations from a re-analysis of the deposited data

Results flagged for a closer look

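In 7 of 34 groups of 5 values tested, the highest or lowest value stood apart, with a gap to its nearest neighbour of more than 0.71 of the group's range (Dixon's test), where chance gives about 1.7. The gaps given below are of log2 values. Levels beside them are printed in CPM, on which scale the gaps differ. APOL1 was low in untreated WT replicate 5 (gap 0.828 of the range, 1.59 CPM against 10.4 CPM in the next) and in treated KO replicate 1 (0.914, 334 CPM against 485 CPM). APOL6 was low in untreated KO replicate 2 (0.748, 2.39 CPM against 15.8 CPM) and in treated KO replicate 1 (0.780, 392 CPM against 639 CPM), and APOL2 in treated WT replicate 1 (0.716, 112 CPM against 175 CPM). The log2 response of APOL1 was high in WT replicate 5 (0.774, 8.12 against 5.48), and that of APOL6 in KO replicate 2 (0.777, 8.18 against 5.27).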

How the results depend on the processing

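Of 649 alternative values, 555 were labelled unchanged, by a rule that differed with the kind of value. Fold changes had to keep their direction and their side of the threshold. Counts of genes called had only to stay within 1.5 times. A fall from 5 to 4 called members, as in WT without the filter on low counts, is therefore among the 555. APOL2, APOL3 and APOL6 stayed called higher after IFNγ in both genotypes under every alternative run, as did APOL1 in WT and APOL4 in KO. Without the filter on low counts, the log2 response of APOL4 in WT was 5.46 and that of APOL1 in KO 4.81, both no longer called. With the replicate block, APOL1 in KO was 5.36, and 5.31 with treated KO replicates 4 and 5 exchanged, also not called, and the block changed no other call of a member. Leaving out 1 clone gave 4.45 to 5.22 for APOL1 in KO and 5.26 to 6.59 for APOL4 in WT. The cause was not tested. Differences between WT and KO that were not called crossed 0. For APOL3 untreated, library totals gave 0.028, for APOL4 untreated the replicate block gave −0.40, and for the interaction of APOL3 it gave 0.012. Leaving out 1 clone gave, in treated libraries, −0.057 to 0.11 for APOL1, −0.077 to 0.23 for APOL2, −0.27 to 0.12 for APOL3, −0.69 to 0.12 for APOL4 and −0.18 to 0.034 for APOL6. In untreated libraries it gave −0.92 to −0.17 for APOL1, −0.71 to −0.10 for APOL6, −0.57 to 0.52 for APOL3 and −1.19 to 0.95 for APOL4, and for the interaction 0.22 to 0.98 for APOL1, 0.043 to 0.64 for APOL6, −0.32 to 0.055 for APOL2, −0.70 to 0.51 for APOL3 and −0.84 to 0.49 for APOL4. Differences of clone responses then ran from −0.68 to 1.10 for APOL1, −0.29 to 0.045 for APOL2, −0.31 to 0.42 for APOL3, −0.29 to 0.40 for APOL4 and −0.20 to 0.80 for APOL6. With 0.5 CPM added they were 0.077 for APOL1, −0.019 for APOL3 and −0.056 for APOL4, and the difference of untreated APOL1 on the log2 scale was −0.024. The count of all genes called moved by over 1.5 times under some alternatives. From 585 in WT it went to 976 by DESeq2, 1414 with the replicate block and 966 at an adjusted p under 0.05. It was 355 and 318 without WT replicate 1 or 2, and 391 to 457 without another WT clone, which is within 1.5 times. From 379 in KO it went to 819 and, with shrinkage, 746 by DESeq2, 721 with the block and 1208 with the block and the exchange. It was 745 at 0.05, 642 when all 20 libraries were fitted together and 131 to 167 without KO replicate 1, 3, 4 or 5. Without KO replicate 2 it was 490, within 1.5 times. Between WT and KO labels it was 3 in treated and 3 in untreated libraries, and 16 and 12 by DESeq2, 12 and 7 with shrinkage, 5 and 5 without the filter, 6 and 5 with all 20 libraries, with 1 untreated under the block and 6 untreated at an adjusted p under 0.05. Depth limits APOL5 most, and untreated libraries with few counts, such as 11 for APOL1 in KO replicate 2, 15 for APOL3 in WT replicate 1 and 33 for APOL4 in WT replicate 3.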
